A study of Mus musculus with 4 samples.

Results

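The glycolysis and lactate genes are 10 protein-coding genes that carry glucose through its breakdown to lactate: Slc2a1, Hk2, Gpi1, Pfkl, Aldoa, Tpi1, Pgam1, Eno1, Pkm2 and Ldha. They were chosen by name, all 10 were found under these symbols among the 37310 genes of GENCODE M1 (22380 of them protein-coding), and each was looked up in the peak lists of a Bio-Myc ChIP-Seq and a Max ChIP-Seq from E14 mouse embryonic stem cells (ESCs). For Bio-Myc, chromatin of a stable E14 clone with Biotin-tagged Myc was bound to streptavidin beads, with a mock ChIP on the same beads as the control. Max was precipitated with an anti-Max antibody from parental wild type E14 cells, with an IgG ChIP as the control. The series holds 4 samples, 1 library for each ChIP, and only the Bio-Myc and Max peak lists were used here. The tagged Myc was driven by the ubiquitous EF1α promoter in 1 clone, while the Max ChIP came from cells without it. The protein, the cells, the way of capture and the control therefore cannot be told apart in any difference between the lists. For the mock ChIP the labels name parental wild type cells and the methods of the study BirA-ES cells. There are no replicates, no value below has an error between cultures, and no expression was measured, so the cell type could not be checked against its markers.

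Glycolysis turns a molecule of glucose into pyruvate in the cytosol, and lactate dehydrogenase then turns pyruvate into lactate, which returns the NAD+ that the pathway uses. Myc and its partner Max are basic helix-loop-helix proteins that bind DNA as a dimer, and their preferred sequence is the E-Box CACGTG. Genes of glycolysis, Ldha in particular, are among the long-known targets of Myc, and pluripotent cells are known for a high rate of glycolysis.

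Bio-Myc was found within 1 kb of an annotated TSS at 6 of the 10 genes (Pfkl, Aldoa, Pgam1, Eno1, Pkm2 and Ldha) and Max at 8 (the same 6, with Hk2 and Tpi1). Slc2a1 and Gpi1 had neither. The shares over all protein-coding genes were 14.6% for Bio-Myc, 34.8% for Max and 12.7% for the 2 together. Genes with many annotated TSSs have more windows in which a peak can fall, and the 10 genes have a median of 4 TSSs. Among the 6776 protein-coding genes with 4 or more TSSs the shares were 22.7%, 50.9% and 19.7%. Within 5 kb of a TSS the count was again 6 for Bio-Myc and was 9 for Max, with Gpi1 added, against 16.6% and 38.6% of protein-coding genes. With the outermost TSS of each gene alone, the counts were 4 and 6, without Aldoa and Ldha, against 13.6% and 32.2%. All 7 Bio-Myc peaks at these promoters met a Max peak (minimum overlap 1 bp), and so did 83.1% of the 2900 Bio-Myc peaks at protein-coding promoters.

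An E-Box lay under a peak at all of the bound promoters except that of Pgam1, so for each of the 7 genes with a CACGTG under a peak the copy nearest the centre of its strongest Bio-Myc peak (Max peak for Hk2 and Tpi1) is shown. Each is read 5′ to 3′ on the strand of the gene from the mm9 sequence, with 12 bases to either side and CACGTG in capitals.
Hk2, chr6:82723594-82723623, minus strand: gactgctgcgccCACGTGggaggagccccc
Pfkl, chr10:77472024-77472053, minus strand: ctttctaggccaCACGTGtcaggacctcta
Aldoa, chr7:133942526-133942555, minus strand: agcgccatttgaCACGTGctcggggaaggg
Tpi1, chr6:124763700-124763729, minus strand: ataagcaagtggCACGTGtcccccagattg
Eno1, chr4:149611500-149611529, plus strand: ggacccggtgggCACGTGcacccactagcc
Pkm2, chr9:59505288-59505317, plus strand: tcatgctgctccCACGTGctggcgaggggg
Ldha, chr7:54101017-54101046, plus strand: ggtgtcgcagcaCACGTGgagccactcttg

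Among the 10 genes, the highest Bio-Myc scores belonged to the last 3 in the order of the pathway, Pkm2, Ldha and Eno1. The score, 10 times the negative log10 of the p-value that MACS gave, starts at about 80 in both lists, and is read here only as a rank within its own list. The percentile of a peak is the share of its list with the same or a lower score. In the Bio-Myc list of 3962 peaks, the strongest promoter peaks stood at percentile 94.5 for Pkm2, 91.5 for Ldha, 89.7 for Eno1, 43.8 for Aldoa, 29.1 for Pfkl and 8.05 for Pgam1. The median of these 6 was 66.8, beside 56.9 over the strongest peaks of the 3275 protein-coding genes with a Bio-Myc peak. In the Max list of 11570 peaks, Ldha was at 98.1, Pkm2 at 97.5, Hk2 at 92.2, Pgam1 at 77.6, Pfkl at 75.3, Tpi1 at 44.6, Aldoa at 40.2 and Eno1 at 39.0, with a median of 76.5 beside 60.9 over 7788 genes. The medians of 56.9 and 60.9 were not limited to genes with many TSSs. Pkm2 and Ldha were thus high in both lists, and Eno1 only in that of Bio-Myc. At a p-value of 1e-15 or lower, Bio-Myc peaks remained at Eno1, Pkm2 and Ldha and Max peaks at Hk2, Pfkl, Pgam1, Pkm2 and Ldha, so that 2 genes had both. At this limit the shares over protein-coding genes were 6.85%, 22.6% and 5.85%.

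**Figure D1:**
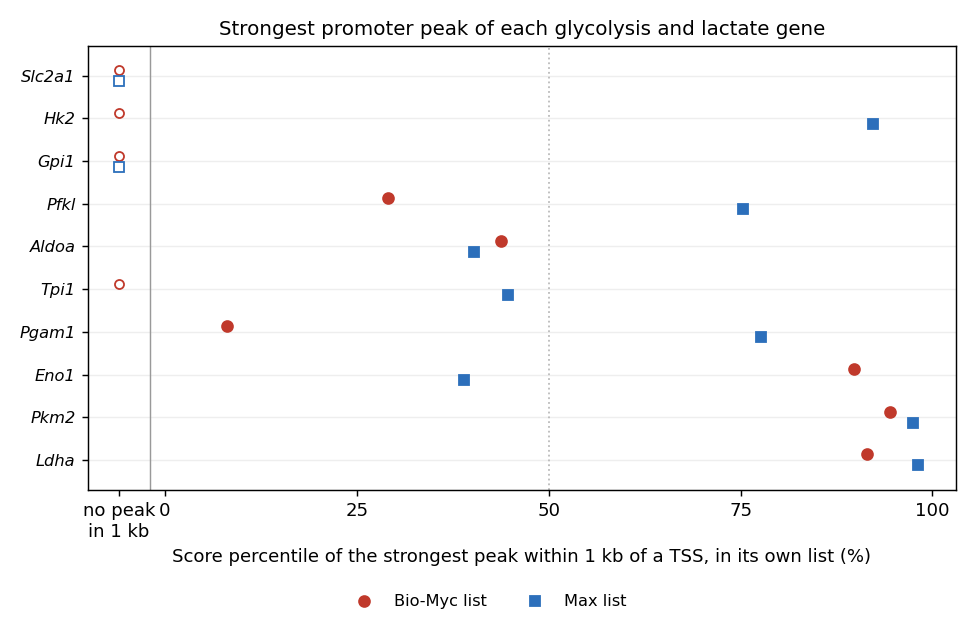
For each of the 10 genes (rows, in the order of the pathway), the score percentile of the strongest peak within 1 kb of a TSS in its own list is shown on the x axis, with a red circle for Bio-Myc and a blue square for Max. Open symbols on the left stand for no peak, and the dotted line marks percentile 50. Pkm2 and Ldha lie above 90 in both lists, while Eno1 lies at 89.7 for Bio-Myc and 39.0 for Max.

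The glucose carrier Slc2a1 and the isomerase Gpi1 were the 2 genes with no peak at the promoter in either list. Slc2a1 (ENSMUSG00000028645.4, chromosome 4, plus strand, 118781316 to 118809935) encodes Glut1, the glucose carrier of most dividing cells. No Bio-Myc peak lay closer than 99.5 kb, and the nearest Max peak was 12.2 kb downstream of a TSS, in intron 2 or 3 of the gene, with a score of 86.5 that ranked 10753 of 11570. None of the CACGTG within 5 kb of its TSSs, 4635 bp upstream and 3199 bp downstream, lay under a peak. Gpi1 (ENSMUSG00000036427.4, chromosome 7, minus strand, 34987141 to 35015308), the isomerase that makes fructose 6-phosphate, had no CACGTG within 5 kb of a TSS. A Max peak was 3413 bp upstream of Gpi1 (35018721 to 35019627, score 293), over TSSs of the noncoding genes Gm12758 and Gm12762. The nearest Bio-Myc peak of Gpi1, 13.5 kb downstream of a TSS, was at the promoter of Pdcd2l. That TSS, at 34995396, is of a retained-intron transcript and lies inside the gene.

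Hk2 (ENSMUSG00000000628.4, chromosome 6, minus strand, 82675019 to 82724448) encodes hexokinase 2, which traps glucose in the cell by phosphorylation, and was bound by Max alone. A Max peak from 82723126 to 82724112 scored 518 and ranked 899, and another, from 82724134 to 82725131, scored 246.5 and ranked 3297. The former covered the TSS at 82723357 and the latter the outermost TSS at 82724448. The former held 2 E-Boxes, 45 bp apart, at 11 and 56 bp from its centre, which lie 837 and 882 bp downstream of the outermost TSS in intron 1 and 254 and 209 bp upstream of the next one. Bio-Myc came no closer than 73.3 kb downstream of an Hk2 TSS, at the promoter of Pole4. That TSS, at 82676303, is of a noncoding transcript, and the 2 E-Boxes were 120529 and 120574 bp from the nearest Bio-Myc peak. Hk2 thus had a Max peak at percentile 92.2 over central E-Boxes and no called Bio-Myc peak.

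Pfkl (ENSMUSG00000020277.8, chromosome 10, minus strand, 77449692 to 77472828) encodes the liver-type subunit of phosphofructokinase, the enzyme of the committed step. Its Bio-Myc peak, from 77471496 to 77472491, scored 102.24 and ranked 2810, and began 61 bp downstream of the TSS at 77472552. The Max peak, from 77471694 to 77472553, scored 273, ranked 2857 and reached that TSS. They shared 798 bp. Under the Bio-Myc peak were 2 E-Boxes in intron 1, at 511 and 967 bp downstream of the TSS, and the former, 45 bp off the Bio-Myc centre and 85 bp off the Max centre, lay under both. A further CACGTG in a coding exon and another in intron 8, 13314 and 12177 bp from the nearest peak of either list, were not covered.

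Aldoa (ENSMUSG00000030695.7, chromosome 7, minus strand, 133938748 to 133944265) encodes aldolase A, which splits fructose 1,6-bisphosphate. A Bio-Myc peak from 133942166 to 133942823 scored 119 and ranked 2228, and a Max peak from 133942220 to 133943052 scored 137 and ranked 6918. Both covered 3 of its 10 annotated TSSs and held the same E-Box, 112 bp downstream of the TSS at 133942655, in an intron of the longer transcripts. Another CACGTG of Aldoa, 125 bp beyond the Bio-Myc peak and 179 bp beyond the Max peak, was under neither. Peaks of both lists also lay 4772 and 4775 bp downstream of an Aldoa TSS, but these covered a TSS of Ppp4c, the next gene. Tpi1 (ENSMUSG00000023456.7, chromosome 6, minus strand, 124760604 to 124764314) encodes the isomerase of the triose phosphates. Its Max peak, from 124763406 to 124764091, scored 146, ranked 6407 and held 1 E-Box, 34 bp from its centre and 597 bp downstream of the outermost TSS in intron 1. No Bio-Myc peak came closer than 5770 bp to a Tpi1 TSS, and another Max peak 2659 bp downstream of one lay over a TSS of Spsb2.

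**Figure D2:**
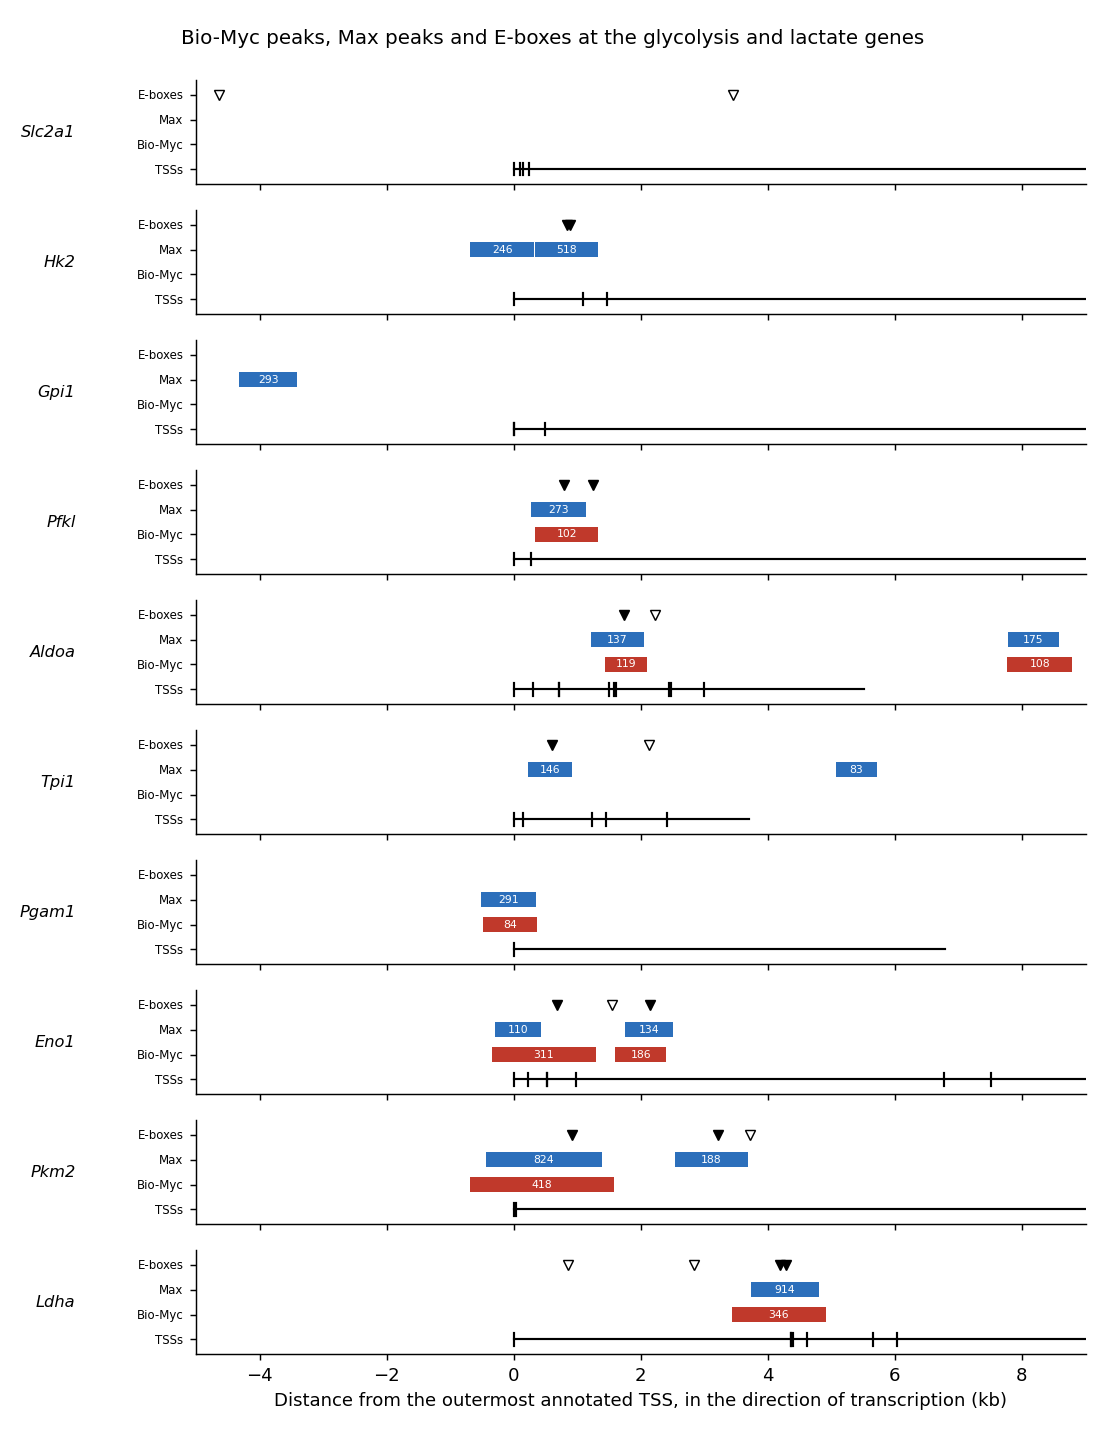
Each panel is a gene drawn in the direction of transcription, with the distance from its outermost annotated TSS in kb on the x axis. The black line is the gene, black ticks its TSSs, red and blue bars the Bio-Myc and Max peaks within 5 kb of a TSS with their scores, and triangles the E-Boxes (filled under a peak, open under none). The axis ends before the far ends of the longer genes. Some TSSs and E-Boxes there are not drawn, and none of these E-Boxes is under a peak. Peaks of both lists overlap at Pfkl, Aldoa, Pgam1, Eno1, Pkm2 and Ldha, and the peaks of Ldha lie over 3 kb inside the outermost TSS.

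Pgam1, Eno1 and Pkm2 make the lower part of the pathway down to pyruvate. Pgam1 (ENSMUSG00000011752.6, chromosome 19, plus strand, 41986361 to 41993154), the phosphoglycerate mutase, has 1 annotated TSS, and both peaks covered it. The Bio-Myc peak, from 41985869 to 41986731, scored 84.5 and ranked 3644, close to the lower limit of 80, and the Max peak, from 41985843 to 41986711, scored 291 and ranked 2590. Their centres were 23 bp apart and they shared 843 bp. Pgam1 was the exception in sequence, with peaks in both lists and no CACGTG within 5 kb of its TSS. Related hexamers were present. A CACGCG lay 88 bp upstream of the TSS and 25 bp from the Bio-Myc centre, and CATGCG occurred in both orientations within the palindrome CGCATGCG, 1 bp from the Bio-Myc centre. They are shown for their position near the Bio-Myc centre, on the plus strand of the gene with the hexamer in capitals. Whether either hexamer is bound was not tested.
Pgam1 CACGCG, chr19:41986261-41986290: actgccgggtagCACGCGggtaccgctacg
Pgam1 CATGCG, chr19:41986286-41986315: ctacgtacaacgCATGCGcactgccgccgc
CACGCG is common at promoters, in 55.8% of the Bio-Myc and 48.5% of the Max peaks at protein-coding promoters on either strand. CGCATGCG occurred in 7.31% of these Bio-Myc peaks. The Pgam1 peak held it at 2 places, 65 bp upstream and 1 bp downstream of the first base of the gene, which 0.690% of the Bio-Myc promoter peaks did. This palindrome was looked at only after the sequence had been seen.

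Eno1 (ENSMUSG00000063524.7, chromosome 4, plus strand, 149610830 to 149622988) encodes enolase 1. Its Bio-Myc peaks, from 149610487 to 149612122 with a score of 311 (rank 408) and from 149612430 to 149613223 with a score of 186 (rank 1097), overlapped Max peaks that spanned 149610534 to 149611255, scoring 110 (rank 8617), and 149612579 to 149613343, scoring 134 (rank 7058). The former pair covered TSSs, and the latter lay in intron 1, 621 and 770 bp downstream of the nearest TSS. The former pair stood at percentile 89.7 of the Bio-Myc list and 25.5 of the Max list, and the intronic pair at 72.3 and 39.0. The E-Box of the former Bio-Myc peak, 682 bp downstream of the outermost TSS, was 210 bp from the peak centre and 257 bp beyond the end of the Max peak. In the intron, 1 E-Box lay under both peaks, 155 bp off the Bio-Myc and 20 bp off the Max centre. Another copy between them, 53 bp before the intronic Bio-Myc peak, was not covered. These copies are shown to set the covered and the uncovered sequence side by side.
Eno1, under both intronic peaks, chr4:149612967-149612996: cccaggacctccCACGTGctagccagcatg
Eno1, under no peak, chr4:149612360-149612389: agcaaagtgtggCACGTGggtgctcctccg

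Pkm2 (ENSMUSG00000032294.9, chromosome 9, plus strand, 59504383 to 59527182) is the gene of the muscle-type pyruvate kinase, with the M1 and M2 forms, which releases pyruvate. Its Bio-Myc peak, from 59503688 to 59505954, had the highest score of the 10 genes, 418 (rank 220), and a width of 2267 bp, against a median of 1054 bp over Bio-Myc peaks at protein-coding promoters. The Max peak, from 59503944 to 59505772, scored 824 (rank 292) and lay wholly within it. Both covered the 2 annotated TSSs. They held 1 E-Box, 885 bp downstream of the nearer TSS in intron 1, which lay 481 bp off the Bio-Myc centre and 444 bp off the Max centre, and so was not central. A further Max peak in intron 1, from 59506913 to 59508062 with a score of 188 (rank 4783), held another E-Box 106 bp from its centre and had no Bio-Myc peak over it.

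Ldha (ENSMUSG00000063229.7, chromosome 7, plus strand, 54096845 to 54110997) encodes the A subunit of lactate dehydrogenase, which catalyses the last step, from pyruvate to lactate. A Bio-Myc peak from 54100276 to 54101763 scored 346 (rank 337), and a Max peak from 54100577 to 54101652 scored 914 (rank 216), the highest Max score of the 10 genes, and lay wholly within it. Both covered 4 of the annotated TSSs, from 54101209 on. Under both lay 2 E-Boxes, 180 and 83 bp upstream of the TSS at 54101209 and 97 bp apart, at 12 and 109 bp from the Bio-Myc centre and 83 and 14 bp from the Max centre. In the annotation they fall in intron 1 of a transcript that starts at 54096845. An E-Box 860 bp downstream of that outer TSS was under no peak, nor was one 1528 bp upstream of the TSS at 54101209. The other covered copy and the uncovered copy near the outer TSS are given here.
Ldha, under both peaks, chr7:54101114-54101143: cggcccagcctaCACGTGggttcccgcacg
Ldha, under no peak, chr7:54097693-54097722: gccggccatgaaCACGTGggggggggaggg

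Over the 10 genes, CACGTG lay under a Bio-Myc promoter peak at 5 of the 6 bound genes and under a Max promoter peak at 7 of the 8, beside 49.7% and 38.6% of the protein-coding genes bound in each list. Counted by peak, 6 of 7 Bio-Myc and 7 of 10 Max promoter peaks held it, where 49.6% of the Bio-Myc and 36.6% of the Max peaks at protein-coding promoters did. Their density was 0.919 per kb under the Bio-Myc and 0.935 per kb under the Max peaks of these genes, beside 0.608 and 0.496 over all peaks at protein-coding promoters. Their median widths were near those of the lists, 996 and 864.5 bp against 1054 and 860 bp. CACGTG lay in the central 200 bp of a promoter peak at 3 of the 6 genes for Bio-Myc and 6 of 8 for Max. Of the protein-coding genes with such a peak, 17.8% and 18.0% had it there. None of the shares set beside these counts was limited to genes with many TSSs.

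Within 5 kb of the TSSs of the 10 genes were 26 copies of CACGTG, at 8 genes. Of these, 6 lay under peaks of both lists, 2 under a Bio-Myc peak alone, 4 under a Max peak alone and 14 under none. Within 1 kb of a TSS, 10 of 15 copies lay under a peak. Over protein-coding genes 30.0% of 13369 did, where a copy near several genes was counted once for each gene. With each copy counted once, 3592 lay under a peak of either list and 9113 under none. CACGTG occurred within 1 kb of a TSS in 7 of the 10 genes and 39.0% of protein-coding genes. All 7 had a covered copy, as did 34.7% of the 8736 protein-coding genes with a copy. The 7 were all among the bound genes, while the 8736 include genes with no peak. This contrast therefore partly repeats the counts of bound genes. The shares of 30.0%, 39.0% and 34.7% were not limited to genes with many TSSs. The 3 of the 10 genes without a copy there were Slc2a1 and Gpi1, with no promoter peak, and Pgam1, with both. All 12 covered copies fell in an intron of at least 1 annotated transcript. At Hk2 and Ldha this was only through the transcript with the outermost TSS. Of the 3884 copies under promoter peaks, 44.3% did. The sets differ, as the 12 include a Pkm2 copy under a Max peak more than 1 kb from a TSS. The result also depends on how many transcripts are annotated, and no share for genes with many TSSs was taken. By the nearest TSS, 8 of the 12 were downstream of it and 4, at Hk2 and Ldha, upstream. Counted by promoter peak, with the most central copy and the nearest TSS of a protein-coding gene, the copy was downstream in 5 of 6 Bio-Myc and 5 of 7 Max peaks, beside 50.2% and 46.7% of all promoter peaks with a copy.

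**Figure D3:**
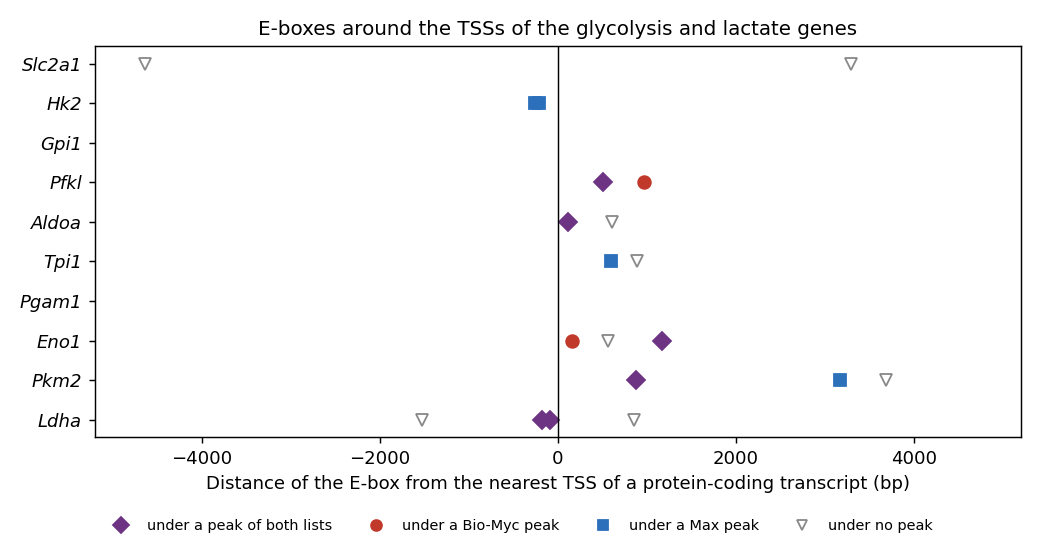
The distance in bp from each E-Box to the nearest TSS of a protein-coding transcript is on the x axis, with the 10 genes as rows. Purple diamonds are under peaks of both lists, red circles under Bio-Myc, blue squares under Max, and open grey triangles under none, and 6 copies farther away, none of them under a peak, are left out. The covered copies lie between 254 bp upstream and 3176 bp downstream.

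The rest of the pathway was read from a list of 39 further genes. Within 1 kb of a TSS, Bio-Myc was found at 14 of them and Max at 21, with 10 bound by both, 4 by Bio-Myc alone, 11 by Max alone and 14 by neither. These are 35.9% for Bio-Myc, 53.8% for Max and 25.6% for both, and with a median of 5 TSSs the genes are best read beside the shares of 22.7%, 50.9% and 19.7% given above for genes with 4 or more TSSs, to which the share for Max was close. The median percentile of their strongest peaks was 65.9 for Bio-Myc and 71.2 for Max, beside 56.9 and 60.9 over all protein-coding genes with a peak. CACGTG lay under the peaks of 9 of the 14 genes bound by Bio-Myc and 14 of the 21 bound by Max. The shares over protein-coding genes bound in each list were 49.7% and 38.6%. Neither these shares nor the medians of 56.9 and 60.9 were limited to genes with many TSSs. Gapdh and Pgk1 are the remaining steps of the main chain. At Gapdh, the dehydrogenase that makes NADH, a Bio-Myc peak with a score of 105 (rank 2698) and a Max peak with a score of 358 (rank 1793) covered a TSS with 1 E-Box each. At Pgk1, the kinase of the first ATP yield, a Bio-Myc peak with a score of 112 (rank 2432) lay 365 bp downstream of a TSS with 1 E-Box, and the nearest Max peak was 1624 kb away. With these genes included, peaks of at least 1 list were found at every step of the chain from hexokinase to lactate except that of Gpi1. At Hk2 and Tpi1 these were of the Max list only, and at Pgk1 of the Bio-Myc list only. Peaks of the Max list are common, at 34.8% of all protein-coding genes and 50.9% of those with 4 or more TSSs.

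Among the 16 isoenzymes and other glucose carriers, many of them genes of liver, muscle, testis or brain, Bio-Myc was at 4, Max at 5 and both at 2. The shares for Max and for both, 31.2% and 12.5%, were close to the 34.8% and 12.7% of all protein-coding genes, and that for Bio-Myc was 25% against 14.6%. Among genes with 4 or more TSSs the shares were 22.7% for Bio-Myc, 50.9% for Max and 19.7% for both. Beside these, Bio-Myc was close and Max and both were lower, though not all 16 genes have that many TSSs. The genes with both were Slc2a3, which encodes the carrier Glut3, with scores of 177 and 650 (ranks 1198 and 538), and Eno3, the muscle enolase. The Eno3 peaks, with scores of 272 and 910, both covered a TSS of its neighbour Pfn1, and only the Max peak reached an Eno3 TSS, the Bio-Myc peak ending 870 bp upstream. Bio-Myc peaks without a Max peak were at Slc2a4, with a score of 155, and Hk1, with a score of 88.1. Max peaks alone were at Pfkm, Pfkp and Eno2, with scores of 159, 437 and 245 for the strongest. At Pfkm this peak covered a TSS of Senp1, and another Max peak, with a score of 146 (rank 6389), covered a TSS of Pfkm itself. Slc2a2, Hk3, Aldoc, Gapdhs, Pgk2, Pgam2, Pklr, Ldhb and Ldhc had neither. By step, Aldoc lacked the promoter peaks that Aldoa had, Pgam2 those of Pgam1, Pklr those of Pkm2, and Ldhb and Ldhc those of Ldha. Other steps did not follow this. Slc2a3 had both peaks where Slc2a1 had none, and Hk1 had a Bio-Myc peak where Hk2 had Max alone. Pfkm and Pfkp had peaks beside Pfkl, and Eno2 and Eno3 beside Eno1.

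Of the 11 genes of lactate and pyruvate transport and pyruvate entry, Bio-Myc was at 4, Max at 8 and both at 4. These are 36.4%, 72.7% and 36.4%, beside 14.6%, 34.8% and 12.7% of all protein-coding genes. Among genes with 4 or more TSSs the shares were 22.7%, 50.9% and 19.7%. Slc16a1, the lactate carrier Mct1, was above percentile 90 in both lists, with a Bio-Myc score of 317 (rank 394), a Max score of 513 (rank 911) and 3 E-Boxes under each peak. Slc16a3, the lactate exporter Mct4, had scores of 132 and 371 (ranks 1933 and 1661) with 1 E-Box. Pdk1, a kinase that turns off pyruvate dehydrogenase, had scores of 339 and 253 (ranks 349 and 3177) with 2 E-Boxes, and Pdha1, a subunit of that enzyme, had 101.99 and 117 (ranks 2830 and 8139) with none. Mpc1, annotated as Brp44l, Pdhb, Pdk2 and Pdk4 had a Max peak alone, and Slc16a7, Mpc2 (Brp44) and Pdk3 had neither. Of the 10 genes of control, Bio-Myc was at 4, Max at 7 and both at 3, or 40%, 70% and 30%, to be read beside the same shares. Pfkfb3, which makes the activator of phosphofructokinase, had scores of 185 and 633 (ranks 1107 and 565) with 2 E-Boxes. Mlxip, a basic helix-loop-helix sensor of glucose metabolites, had 222 and 473 (ranks 803 and 1061) with 1, and Adpgk, which phosphorylates glucose with ADP, had 210 and 302 (ranks 887 and 2425) with none. Tigar (9630033F20Rik), a bisphosphatase, had a Bio-Myc peak alone, with a score of 118 (rank 2273). Hif1a, Mlxipl, Bpgm and Pfkfb2 had a Max peak alone, and Pfkfb1 and Pfkfb4 neither.

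**Figure D4:**
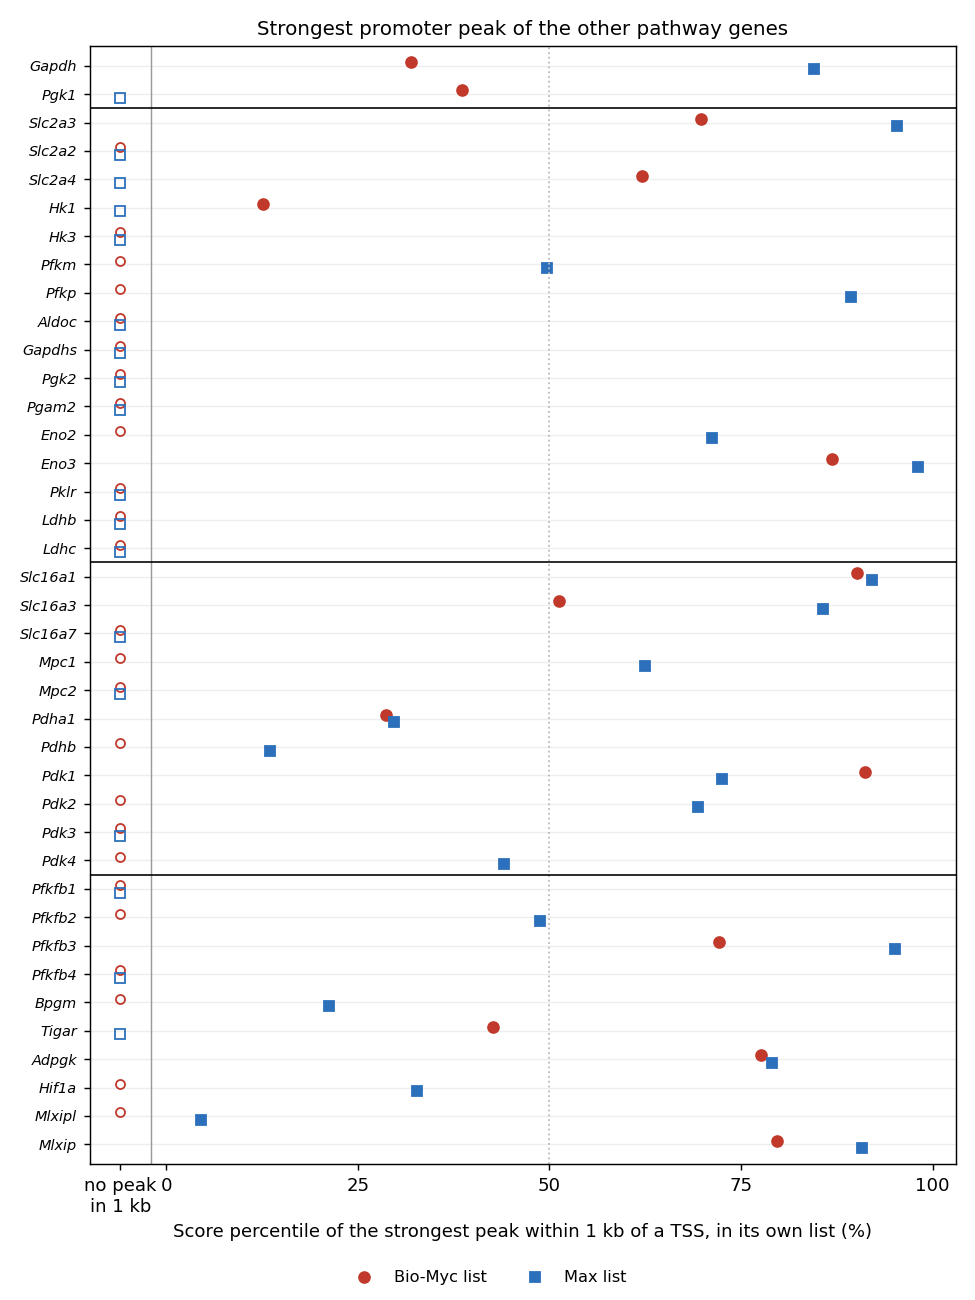
The 39 further genes are rows, in 4 groups split by black lines (core steps, isoenzymes and glucose carriers, lactate and pyruvate transport and entry, control), and the score percentile of the strongest peak within 1 kb of a TSS is on the x axis. Red circles are Bio-Myc, blue squares Max, and open symbols on the left no peak. Slc16a1 lies above 90 in both lists, and 9 of the 16 genes of the isoenzyme group have no peak in either.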

How the data were processed

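Libraries were run by the authors on a HiScanSQ, and reads with 1 hit in mm9 and up to 2 mismatches were kept (Bowtie 0.12.7; CASAVA 1.8 is also in the submitters' processing notes). Redundant reads were collapsed, and MACS 1.4.1 called peaks in each library over its own control, mock for Bio-Myc and IgG for Max, with 1e-08 as the p-value limit. The deposited lists hold the position of each peak and the score of the authors (10 times the negative log10 of p). The ranks and missing peaks rest on the 3962 peaks of the deposited Bio-Myc list. The study states a larger number of Myc sites, but a figure legend gives that number as bound TSSs, a unit unlike peaks. The lists carry no read counts, so depth is unknown. The fixed limit makes the number of peaks depend on it, and a missing peak says only that none was called.

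Genes were taken from GENCODE M1 (Ensembl 65) and sequence from mm9, which share an assembly. Coordinates are 1-based. A gene counted as bound where any of its TSSs had a peak edge at most 1 kb away, and overlaps needed 1 bp. The distance of a peak runs from a TSS to its nearest edge. CACGTG is its own reverse complement, and other hexamers were searched on both strands. No test was run, since there is 1 library for each ChIP and the genes are a chosen list, so shares over all protein-coding genes or promoter peaks stand beside the counts. The genes, the further pathway list and the rule for naming them (all 10 genes, every pathway gene with both peaks, the core steps, examples of the rest in list order, and neighbours that share a peak) were chosen with earlier results of these data known. The neighbours of more distant peaks, the sequences beyond 1 for each gene, and the remaining pathway genes, Pfn1 and Senp1 were named after their values were seen. Sequence was read with pysam 0.24.0 in Python 3.11.15 and figures were drawn with matplotlib 3.10.9, and 9 of 9 lookup steps returned the known answers on simulated data. Some genes of the pathway were left out of the further list and are not reported here. Other windows, score limits, overlap rules and rankings were tried.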

Additional observations from a re-analysis of the deposited data

How the results depend on the processing

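Of 64 values under other settings, 50 stayed within 1.5 times the reported count or within the 95% Wilson interval of the reported percentile, and 14 moved. The interval was computed with the number of peaks in the list. It therefore does not measure the spread of a median over 6 genes for Bio-Myc or 8 for Max. For the percentiles it served only as a narrow limit that small shifts exceed. At a p-value of 1e-15 or lower, the counts of the 10 genes were 3 for Bio-Myc, 5 for Max and 2 for both, and 8 of the 39 further genes had a Bio-Myc peak. With the Max list cut to its 3962 highest-scoring peaks, 5 of the 10 genes and 12 of the 39 further genes had a Max peak, and 4 of the 7 Bio-Myc promoter peaks overlapped one. Both kinds of limit leave fewer peaks by construction. In the central 200 bp, 3 genes had CACGTG under a Bio-Myc peak. The median Bio-Myc percentile, 66.8, was 63.4 among protein-coding promoter peaks and 71.9 by score per width. The median Max percentile, 76.5, was 71.8 and 85.0 in the same rankings, 77.6 with peaks within 5 kb, and 77.7 without chromosome 8, which holds 1357 of the 11570 Max peaks, a setting chosen after seeing the data. The cause of the shift by score per width was not tested. With the outermost TSS in place of any TSS, Aldoa and Ldha lost the peaks of both lists, and 4 genes had a Bio-Myc and 6 a Max peak. No paired analysis was possible because each ChIP has 1 library. Depth is unknown, so the lack of a peak at Slc2a1 or Gpi1, or of a Bio-Myc peak at Hk2 or Tpi1, says only that none passed the limit of the authors.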
